A study of Mus musculus with 30 samples.

Results

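The comparison described here sets 2 RNA-seq libraries of medullary thymic epithelial cells with high MHC class II (mTEChi) from mice given topotecan against 2 from mice given DMSO, 4 of the 30 samples of the series. The libraries were found by the agent named in their titles, and every gene in their count tables was considered. All mice were female, WT, of the C57BL/6J strain and 4 to 6 weeks old. Both agents were injected intraperitoneally, and the labels state neither the dose nor the time of treatment. Each library was made from 1000 sorted cells after depletion of CD45+ cells, by oligo(dT) capture, Smart-seq2 amplification and tagmentation, without unique molecular identifiers or strand. The topotecan libraries held 2890040 and 2952931 counts, and the DMSO libraries held 3333397 and 3363713. Nothing in the labels ties the replicates to separate animals, so p-values measure the spread between libraries, which may be technical.

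Medullary thymic epithelial cells show developing T cells a broad sample of the body's own proteins. The regulator Aire drives much of this expression at genes otherwise used in single tissues, and small groups of these cells, called mimetic cells, resemble gut, muscle, ciliated, tuft and other peripheral cell types. Topotecan is a camptothecin drug that traps topoisomerase I, the enzyme that relaxes supercoiled DNA ahead of and behind RNA polymerase, on the DNA it has cut. In neurons this class of drug is known to lower the transcripts of long genes.

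All 16 mTEChi markers examined had counts in each of the 4 libraries, but several stood at other levels than in 6 other libraries of WT mTEChi (PBS, spermidine and Nfe2l2 wt, 2 each). The titles of the Nfe2l2 wt libraries also name Foxn1Cre. Epcam, the epithelial adhesion molecule, stood at 858 and 592 CPM (counts scaled to library size, with TMM factors) in the topotecan libraries, against 766 and 710 CPM in the DMSO libraries. Krt5, a keratin of the medulla, stood at 1205 and 1245 CPM in topotecan libraries, against 981 and 1269 CPM in DMSO libraries, and neither gene was called (edgeR adjusted p = 0.963 for Epcam and 0.766 for Krt5). All 4 libraries lay above the range of the 6 other WT libraries for the keratins Krt5 (539 to 793 CPM) and Krt14, and below it for Aire, H2-Aa, H2-Ab1, Krt8, Cldn3, Cldn4 and Spib. Cldn3, a claudin of tight junctions, stood at 80.5 and 88.2 CPM with topotecan and at 77.7 and 56.1 CPM with DMSO, where the other WT libraries held 142 to 216 CPM. Of the 16 markers, Aire and H2-Ab1 were called between topotecan and DMSO, both lower. Summed levels of thymocyte markers were 408 and 396 CPM with topotecan, against 354 and 296 CPM with DMSO, and those of dendritic cell and macrophage markers were 1715 and 1699 CPM, against 1344 and 1401 CPM. In both lists the groups did not overlap, and the exact permutation test gave p = 0.333 for each, the smallest that 2 against 2 libraries allow. Fibroblast markers summed to 311 and 1599 CPM in topotecan libraries, against 509 and 911 CPM in DMSO libraries, and the B cell, endothelial and red cell lists also overlapped between the groups. Markers of cortical epithelium summed to 1307 and 1393 CPM with topotecan, against 1452 and 1597 CPM with DMSO. None of the 7 lists of other cells had a called gene in edgeR or limma-voom, and DESeq2 called 1 member lower, the dendritic cell receptor gene Xcr1. The members tested were 12 thymocyte, 10 B cell, 13 dendritic cell and macrophage, 11 fibroblast, 9 endothelial, 7 red cell and 9 cortical genes. At an unadjusted p under 0.05, 7 of these members were higher and 3 lower. Of all tested genes, 13.9% reached that threshold, 5.92% higher and 8.01% lower. No tested member was at 0 in all 4 libraries. The part of other cells in the results below was not tested, and in bulk samples fewer cells of a type and less RNA per cell cannot be told apart.

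Topotecan-treated mTEChi carried less Aire transcript, less of some peripheral-tissue transcripts and more of others, and more of several mitochondrial transcripts, while the median change of long genes was not below that of all genes. Of 18418 genes tested, 120 (0.652%) passed an adjusted p under 0.05 in edgeR and are called here: 36 were higher with topotecan (0.195%) and 84 lower (0.456%). Changes of at least 2-fold made up 27 of the higher genes (0.147% of all tested) and 56 of the lower (0.304%). An unadjusted p under 0.05 was reached by 2566 genes (13.9%), 1090 higher (5.92%) and 1476 lower (8.01%). The calls rest on the spread shared by all 16 mTEChi libraries of the series. Beside WT libraries these include Aire-KO libraries given PBS or spermidine, and Foxn1Cre libraries with Nfe2l2 wt or flox. When the 4 libraries were fitted alone, 1 gene was called, Lcn2, which encodes a siderophore-binding protein and was not among the 120. Of the 120 genes, limma-voom called 51. Genes it did not call include Zcchc12, Pgc, Cel, Cyp26a1, Psca and Clec4f. Chgb, Gabrr1, Ccn5, Reg3a, Ctrb1, Th, Dbh, Bco1, Gkn1 and Cela2a were not called in limma-voom either. Without DMSO replicate 1 there were 45 calls, of which 27 were among the 120, and the other single leave-outs gave 109 to 170. In these fits 15 of the 120 genes were called whichever library was left out: Zcchc12, Pgc, Cel, Meltf, Rfx6, Cyp26a1, Psca, Calcb, Vmo1, Uhrf1, Fabp4, Hdc and Nsmce1 lower, and Rnf187 and Clec4f higher.

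Aire itself fell. The gene (ENSMUSG00000000731.15, chromosome 10, 78030022 to 78043610, minus strand, build GRCm38) stood at 819 and 641 CPM in the topotecan libraries, against 1500 and 1180 CPM in the DMSO libraries. Both topotecan libraries lay below both DMSO libraries, a 1.84-fold fall (log2 -0.88, SE 0.136, edgeR adjusted p = 0.0125, n = 2 each). The call was lost without DMSO replicate 1 and in the fit to the 4 libraries alone. In the 6 other WT libraries Aire ranged between 1621 and 1930 CPM, so the DMSO libraries also lay below that range. Aire overlaps Dnmt3l, and the protocol does not mark strand; Dnmt3l stood at 39.7 and 17.8 CPM with topotecan, against 39.3 and 26.9 CPM with DMSO. Top1, which encodes the drug's target (chromosome 2, 160645888 to 160722764, plus strand), was not called, at 101 and 118 CPM in topotecan libraries, against 94.9 and 85.2 CPM in DMSO libraries (log2 0.28, SE 0.164, edgeR adjusted p = 0.473). The groups did not overlap for Top1, and the topotecan libraries were the higher ones, as they were in 19.9% of all tested genes.

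**Figure D1:**
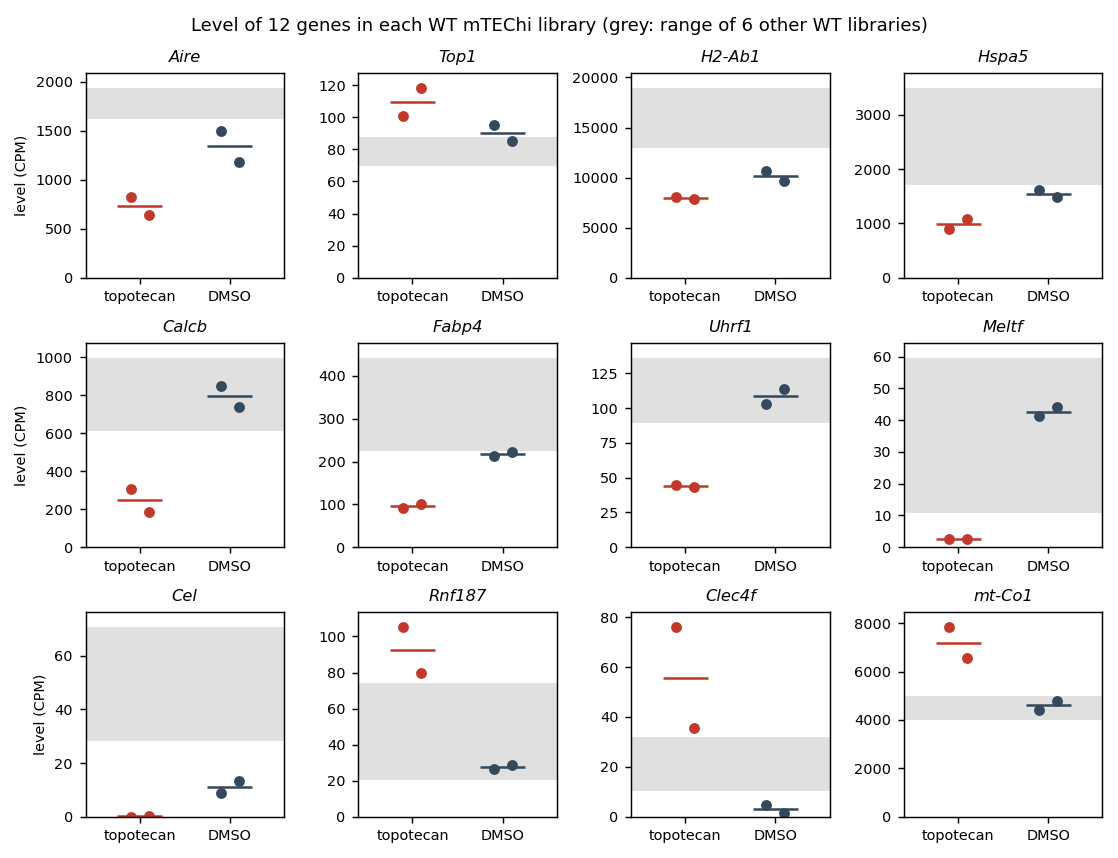
Level of 12 genes in CPM (vertical axes, linear from 0) in each topotecan library (red points, left) and DMSO library (dark points, right), with bars at group means and grey bands for the range of 6 other WT mTEChi libraries. The topotecan points for Aire lie at 819 and 641 CPM, under both DMSO points and under the band, and those for mt-Co1 lie above both.

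Several genes that are well expressed in mTEChi fell whichever library was left out. Calcb, which encodes a calcitonin gene-related neuropeptide, stood at 309 and 188 CPM in topotecan libraries, against 848 and 741 CPM in DMSO libraries (log2 -1.68, SE 0.18, edgeR adjusted p = 0.00235). Fabp4, a fatty acid carrier of adipocytes, stood at 92.1 and 100 CPM with topotecan, against 213 and 222 CPM with DMSO (log2 -1.18, SE 0.129, edgeR adjusted p = 0.00235). Uhrf1, a maintenance factor for DNA methylation, stood at 45 and 43.3 CPM with topotecan, against 103 and 114 CPM with DMSO (log2 -1.30, SE 0.178, edgeR adjusted p = 0.00768). For all 3 genes the groups were far apart, and the replicates of Fabp4 and Uhrf1 were close while those of Calcb with topotecan were not. Hdc, which makes histamine from histidine, stood at 242 and 324 CPM in topotecan libraries, against 694 and 486 CPM in DMSO libraries (log2 -1.06). Nsmce1, a subunit of the SMC5/6 complex that takes part in DNA repair, stood at 117 and 125 CPM with topotecan, against 218 and 206 CPM with DMSO (log2 -0.80). Vmo1, a homologue of an egg vitelline membrane protein, stood at 29.8 and 36.9 CPM with topotecan, against 72.8 and 122 CPM with DMSO (log2 -1.55). These 6 genes were among the 15 called in every single leave-out, and none of their groups overlapped. Of them, Calcb, Fabp4, Vmo1 and Nsmce1 were at least 2-fold higher in Aire-KO cells of a separate experiment of the series, and Uhrf1 was at least 2-fold lower there. In mTEChi of PBS-injected mice, Aire-KO over WT gave log2 values of 1.71 for Calcb, 1.68 for Nsmce1 and 0.60 for both Fabp4 and Vmo1. Uhrf1 had 0.31 in that comparison, and Uhrf1 and Vmo1 were not called (edgeR adjusted p = 0.28 and 0.0981). All 6 were chosen for description after their values were seen.

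The largest falls included genes of the digestive tract and of nerve and endocrine cells, several with hardly a read left in the topotecan libraries. Pgc, the stomach proenzyme pepsinogen C, had 0 and 0.956 CPM in topotecan libraries, against 47.3 and 21 CPM in DMSO libraries, which is 3 counts against 240. The DMSO level was 69.8-fold that of topotecan, with a 95% counting interval of 23.6 to 341. Cel, a pancreatic lipase, had 0 and 0.319 CPM with topotecan, against 8.89 and 13.5 CPM with DMSO (ratio of DMSO to topotecan 69, interval 12 to 2758). For both genes the DMSO libraries themselves lay below the 6 other WT libraries, which held 50.7 to 116 CPM of Pgc and 28.3 to 70.5 CPM of Cel. Reg3a, an antimicrobial lectin of the gut, had 0.662 and 0.319 CPM with topotecan, against 8.89 and 12.3 CPM with DMSO. Ctrb1, a pancreatic chymotrypsinogen, had 2.65 and 0 CPM with topotecan, against 28.4 and 16.3 CPM with DMSO (log2 -4.06, SE 0.784, edgeR adjusted p = 0.0355). Both genes fell, but Reg3a lost its call without topotecan replicate 2, and Ctrb1 without topotecan replicate 2 or DMSO replicate 1.

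Chgb, which encodes a protein of neuroendocrine secretory granules, had no count in either topotecan library, against 55.3 and 4.49 CPM in DMSO libraries. It was at least 60.8-fold lower, with the floor set at 3 counts over the topotecan group, but 1 of the 2 DMSO libraries carried most of its reads. Gabrr1, a GABA receptor subunit of the retina, and Ccn5, a matricellular protein, also had no count with topotecan. Gabrr1 had 5.73 and 32.8 CPM in DMSO libraries and was at least 39.9-fold lower with topotecan, and Ccn5 had 5.45 and 25.5 CPM in DMSO libraries and was at least 32-fold lower. For both, DMSO replicate 2 carried most of the reads and lay above the 6 other WT libraries, which held up to 6.05 CPM of Gabrr1 and 10.6 CPM of Ccn5. Without topotecan replicate 2, none of Chgb, Gabrr1 and Ccn5 was called. Chgb also lost its call without topotecan replicate 1 or DMSO replicate 1, and Ccn5 without topotecan replicate 1 or DMSO replicate 2. Meltf, a membrane-bound relative of transferrin, stood at 2.65 and 2.55 CPM in topotecan libraries, against 41.3 and 44 CPM in DMSO libraries (log2 -4.02, SE 0.518, edgeR adjusted p = 0.00632). Its groups were 16.2-fold apart and its replicates nearly equal, but the 6 other WT libraries ranged widely, between 10.7 and 59.6 CPM. Rfx6, a transcription factor of islet and enteroendocrine cells, had 1.32 and 0.956 CPM with topotecan, against 14 and 18.2 CPM with DMSO (log2 -3.78, edgeR adjusted p = 0.0107). Th, tyrosine hydroxylase, the first enzyme of catecholamine synthesis, had 2.98 and 2.23 CPM with topotecan, against 13.8 and 48.5 CPM with DMSO. Dbh, which acts later in the same pathway and was picked out after its values were seen, had 3 counts over the topotecan libraries, against 39 over the DMSO libraries, and was called, but not without either topotecan library or DMSO replicate 1. Slc17a6, a glutamate transporter of synaptic vesicles, had 2.98 and 1.91 CPM with topotecan, against 27 and 22.7 CPM with DMSO. The 6 other WT libraries held 1.49 to 13.5 CPM of Slc17a6, so its topotecan libraries lay within that range and its DMSO libraries above it. For Rfx6 they held 2.76 to 12.7 CPM, below both DMSO libraries. Rfx6, Th, Dbh and Slc17a6 all fell against DMSO. Th lost its call when either topotecan library or DMSO replicate 2 was left out, and Slc17a6 without topotecan replicate 2 or DMSO replicate 1. The other genes among the 15 largest falls were Zcchc12, with 1 count over the topotecan libraries against 183 over the DMSO libraries, and Mfap4, Fcna and Cngb1, with log2 values between -4.78 and -3.56. Mfap4 overlaps the gene Mapk7. Psca and Cyp26a1, chosen after their values were seen, stood at 6.96 and 5.73 CPM and at 3.97 and 11.8 CPM with topotecan, against 29 and 20.7 CPM and 76 and 67.6 CPM with DMSO.

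The largest rises included genes of liver, stomach and gut. Clec4f, a lectin of Kupffer cells in the mouse, stood at 75.9 and 35.7 CPM in topotecan libraries, against 4.59 and 1.4 CPM in DMSO libraries (log2 4.21, SE 0.626, edgeR adjusted p = 0.0124). Bco1, which cleaves beta-carotene, stood at 24.5 and 45.9 CPM with topotecan, against 2.29 and 1.68 CPM with DMSO (log2 4.12, SE 0.623, edgeR adjusted p = 0.0114). Gkn1, a secreted protein of the stomach lining, stood at 8.94 and 11.5 CPM with topotecan, against 1.43 and 0.841 CPM with DMSO. All 3 were higher in both topotecan libraries, and for all 3 the DMSO libraries lay below the range of the 6 other WT libraries, which was 10.5 to 31.9 CPM for Clec4f, 5.35 to 13 CPM for Bco1 and 4.38 to 20.5 CPM for Gkn1. Bco1 and Gkn1 lost their calls when either DMSO library was left out. Apoa1, an apolipoprotein of liver and gut, stood at 237 and 104 CPM in topotecan libraries, against 38.7 and 33.9 CPM in DMSO libraries (log2 2.23, SE 0.381, edgeR adjusted p = 0.0184). Its neighbour Apoa4 stood at 232 and 151 CPM with topotecan, against 55.3 and 37.3 CPM with DMSO (log2 2.04, SE 0.386). Both rose, and both lost their calls without topotecan replicate 1 or either DMSO library. Cela2a, a pancreatic elastase, was higher at 68.2 and 17.2 CPM with topotecan, against 2.58 and 2.52 CPM with DMSO, and lost its call without topotecan replicate 1 or either DMSO library. It overlaps the chymotrypsin gene Ctrc and Casp9, and reads of the overlap cannot be told apart. Fetub, a liver protease inhibitor, stood at 66.9 and 17.8 CPM with topotecan, against 6.02 and 4.49 CPM with DMSO. Fbp2, Car7, Slc11a1, Xkrx, Lefty2, Tmem191c and Zranb3, also among the 15 largest rises, had log2 values between 1.83 and 2.67, and Xkrx and Tmem191c overlap the genes Nox1 and Pi4ka. Rnf187, a ubiquitin ligase and the last of these 15, stood at 105 and 79.9 CPM in topotecan libraries, against 26.7 and 28.6 CPM in DMSO libraries (log2 1.74, SE 0.198, edgeR adjusted p = 0.00244).

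The bases upstream of 4 of these genes are shown because they hold the motifs that were counted, in capitals. Sequences are from RefSeq (GRCm38.p6), each running 5′ to 3′ over the 250 bases before the annotated start: Aire and Pgc, which fell, and Bco1, which rose, hold the TATA motif TATAAA, and Rnf187, which rose, holds a run of CG repeats. Aire also holds a run of CG repeats in the bases after its start, which were searched but are not printed.
Aire, chr10:78043611-78043860, minus strand: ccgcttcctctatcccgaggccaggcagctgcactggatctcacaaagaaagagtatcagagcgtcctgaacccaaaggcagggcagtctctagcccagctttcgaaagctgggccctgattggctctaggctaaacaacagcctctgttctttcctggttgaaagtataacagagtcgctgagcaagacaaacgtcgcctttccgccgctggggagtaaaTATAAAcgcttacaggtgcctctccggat
Pgc, chr17:47726592-47726841, plus strand: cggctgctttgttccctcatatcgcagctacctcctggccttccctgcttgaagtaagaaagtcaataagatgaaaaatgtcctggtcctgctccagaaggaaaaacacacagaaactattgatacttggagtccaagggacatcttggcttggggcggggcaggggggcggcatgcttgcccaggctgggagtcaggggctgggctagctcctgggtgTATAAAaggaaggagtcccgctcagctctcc
Bco1, chr8:117095615-117095864, plus strand: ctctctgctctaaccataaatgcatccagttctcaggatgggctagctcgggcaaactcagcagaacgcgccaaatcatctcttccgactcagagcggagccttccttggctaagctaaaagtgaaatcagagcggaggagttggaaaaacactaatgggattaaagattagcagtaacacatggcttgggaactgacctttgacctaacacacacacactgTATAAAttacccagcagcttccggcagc
Rnf187, chr11:58938907-58939156, minus strand: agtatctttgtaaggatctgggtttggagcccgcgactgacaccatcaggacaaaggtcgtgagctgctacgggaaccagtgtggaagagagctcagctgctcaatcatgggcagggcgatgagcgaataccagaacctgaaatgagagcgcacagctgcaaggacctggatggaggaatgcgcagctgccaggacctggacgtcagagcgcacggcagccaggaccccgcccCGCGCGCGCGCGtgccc
RefSeq promoters were found for 28 of the 36 higher genes, 69 of the 84 lower genes and 13357 of all 18418 tested genes, and each was searched on both strands from 250 bases before to 50 after the start. TATAAA was present in 4 of the higher promoters (14.3%), 14 of the lower (20.3%), 16.1% of promoters of Aire-induced genes and 9.49% of all. CG repeated 3 times or more was present in 10.7% of higher and 18.8% of lower promoters, against 18.8% of all. Alternating CA or TG repeated 6 times, the kind of sequence that can adopt the Z-DNA form, was present in no higher promoter and in 1 lower promoter, that of Scd3, a fatty acid desaturase, against 0.606% of all. Genes that fell by less than 2-fold had a median of 6.5 CpG dinucleotides per 100 bases, and those that fell by 2-fold or more had 2, against 6 over all promoters. These shares describe the windows searched and were not tested.

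The series concerns how Aire chooses its targets, so the called genes were set beside an experiment that the topotecan comparison does not use. In Aire-GFP+ mTECs of the B6 strain, 2 Aire-KO libraries were compared with 3 WT libraries, and genes called at least 2-fold lower in Aire-KO cells (edgeR adjusted p under 0.05, 3152 genes) are termed Aire-induced and those at least 2-fold higher (1343 genes) Aire-repressed. Of the 84 genes that fell with topotecan, 80 were tested there, and 29 were Aire-induced (36.2%), against 17.3% of all tested genes. That excess depended on the test: limma-voom called 30 genes lower, of which 3 were Aire-induced, while edgeR glmTreat at a fold of 1.5 called 11 lower, of which 7 were. Another 15 were Aire-repressed (18.8%), against 7.92% of all. Of those that fell by at least 2-fold, 28 of 52 were Aire-induced (53.8%), among them Pgc, Cel, Ctrb1, Th and Meltf. Of those that fell by less, 1 of 28 was Aire-induced, the RNA-binding protein gene Pcbp4, which overlaps Gpr62, and 16 (57.1%) were higher in Aire-KO cells at any fold, against 20.6% of all tested genes. The 36 genes that rose included 11 Aire-induced genes (30.6%), such as Clec4f, Bco1, Apoa1 and Lefty2. Split into 3 equal groups of genes by mean level, 8 of 1299 Aire-induced genes fell in the lowest group (0.616%, against 0.244% of all genes there), 19 of 888 in the middle group (2.14%, against 0.44%) and 2 of 525 in the highest group (0.381%, against 0.684%).

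**Figure D2:**
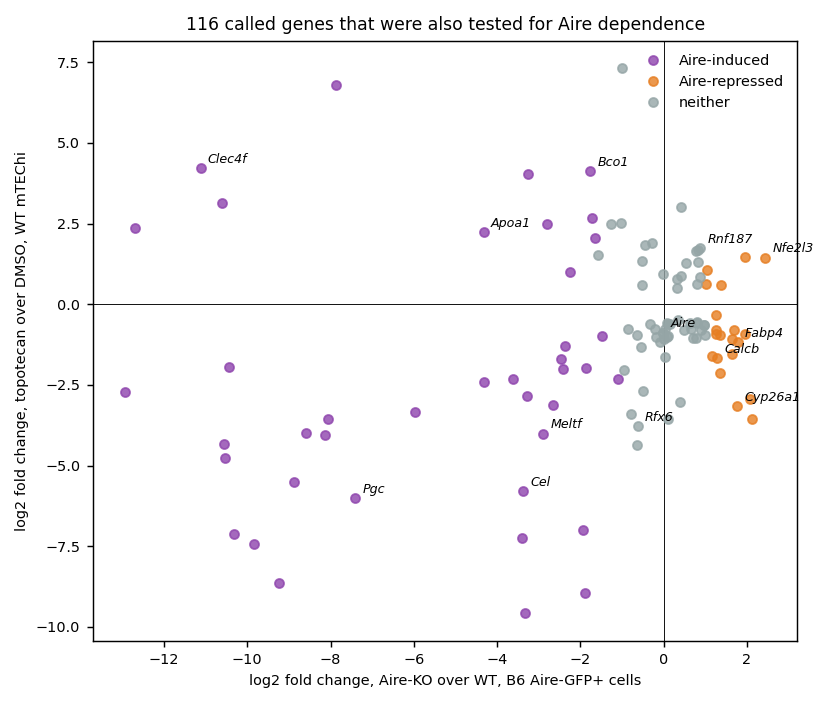
Log2 fold change of Aire-KO over WT in B6 Aire-GFP+ cells (horizontal axis) against log2 fold change of topotecan over DMSO in WT mTEChi (vertical axis) for the 116 called genes tested in both, coloured by Aire-induced, Aire-repressed or neither. Aire-induced genes lie on both sides of 0 on the vertical axis, 29 below and 11 above, and the scale of genes without reads in a group depends on the fit.

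The median change of Aire-induced genes as a whole was small. Of the 2712 that were tested with topotecan, 29 fell (1.07%) and 11 rose (0.406%), against 0.456% and 0.195% of all tested genes, and their median log2 fold change was -0.04, against 0.01 over all tested genes. With genes lacking counts in a group set at their bound the median was -0.03. The direction of this median depended on how the set was defined: the 801 genes that were Aire-induced in mTEChi of PBS-injected mice had a median of 0.15, with 20 lower (2.5%) and 11 higher (1.37%). Aire-repressed genes gave similar numbers, with 15 of 1239 lower (1.21%), 5 higher and a median of -0.04. The share of all counts from Aire-induced genes was 8.64 and 8.97% in the topotecan libraries, against 7.99 and 8% in the DMSO libraries. The groups did not overlap, and the exact permutation test gave p = 0.333 (two-sided). At an equal depth of 2890040 counts, 2739 and 2722 Aire-induced genes were detected with topotecan, against 2810 and 2749 with DMSO (exact p = 0.333). Over all genes 31553 and 31363 were detected with topotecan, against 30919 and 29597 with DMSO (exact p = 0.333), and without thinning the groups overlapped.

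Long genes did not have a lower median than other genes. Among the 2336 tested genes that span 100 kb or more, 4 fell (0.171%) and 1 rose (0.0428%), and their median log2 fold change was 0.06, against 0.01 over all tested genes. The median was 0.00 for genes under 5 kb, -0.02 for 5 to 20 kb, 0.00 for 20 to 50 kb, 0.04 for 50 to 100 kb, 0.06 for 100 to 200 kb and 0.07 for 200 kb or more, and the share called was smallest in the longest genes. Calls were densest among the shortest genes, of which 26 of 3033 fell (0.857%). That density sat with Aire-induced genes under 5 kb, where 14 of 406 fell (3.45%) with a median of -0.19, against 12 of 2627 other short genes (0.457%) with a median of 0.02. Set at their bound for genes without counts, the short Aire-induced genes had a median of -0.13. The share of counts from genes of 100 kb or more was 10.5 and 10.3% with topotecan, against 10.3 and 10.2% with DMSO (exact p = 0.333).

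**Figure D3:**
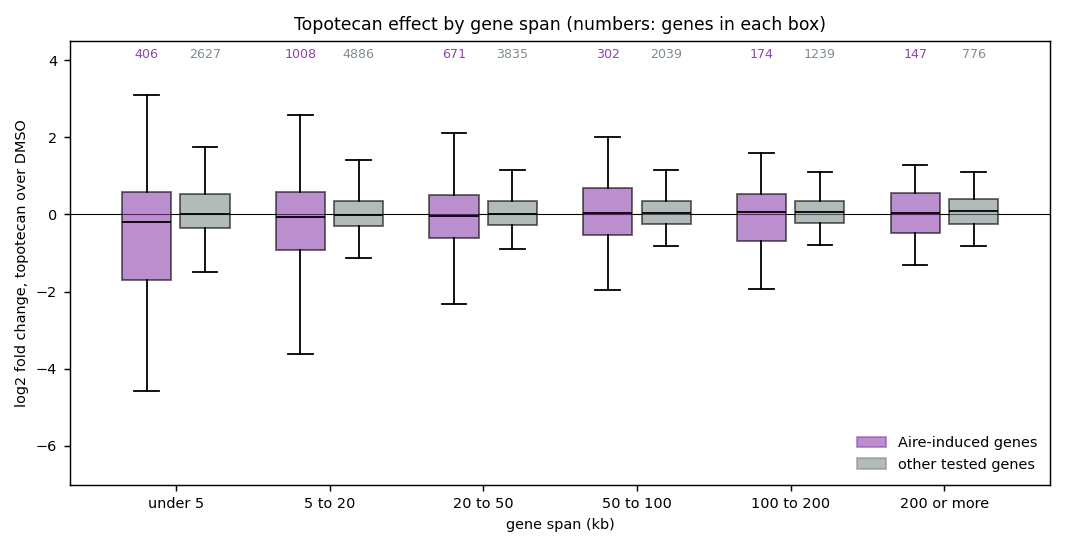
Log2 fold change of topotecan over DMSO (vertical axis) by gene span in kb (horizontal axis) for Aire-induced genes (purple, left of each pair) and other tested genes (grey); boxes show the median and quartiles, whiskers the 5th to 95th percentile, and numbers the genes in each box. Medians stay near 0 in every bin, lowest at -0.19 in Aire-induced genes under 5 kb, and the whiskers of Aire-induced genes are widest in the shortest genes.

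Among called genes with a mean of 5 CPM or more, Pip5k1b, a lipid kinase gene that spans 261 kb on chromosome 19 and overlaps Fam122a, was the longest to fall, at 88.8 and 58.6 CPM in topotecan libraries, against 164 and 138 CPM in DMSO libraries (log2 -1.04, SE 0.17, edgeR adjusted p = 0.0151). Plb1, an intestinal phospholipase gene of 134 kb, stood at 82.8 and 104 CPM with topotecan, against 185 and 140 CPM with DMSO (log2 -0.80). Both groups of libraries stood apart for each gene. Zranb3, a gene of 149 kb for a helicase that remodels stalled replication forks, was the longest to rise, at 30.8 and 25.8 CPM with topotecan, against 6.31 and 9.53 CPM with DMSO (log2 1.83, SE 0.39), and it lost its call under each single leave-out. A list of 25 long neuronal and synaptic genes held no called gene in edgeR, DESeq2 or limma-voom. At an unadjusted p under 0.05, 2 were higher and 1 lower, against 5.92% and 8.01% of all tested genes, and the list median was 0.18. Csmd1, a large complement regulator gene, was the member with the smallest p, at 76.2 and 84.7 CPM with topotecan, against 42.4 and 51.9 CPM with DMSO (log2 0.77, edgeR adjusted p = 0.174).

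Several transcripts of the mitochondrial genome rose. Of the 10 tested, 5 were called higher (all 10 had positive log2 values, 0.25 to 0.89), and the list median was 0.60. In 8 of the 10 both topotecan libraries were above both DMSO libraries, a pattern shown by 19.9% of all tested genes. mt-Co1, a subunit of respiratory complex IV, stood at 7821 and 6555 CPM in topotecan libraries, against 4415 and 4788 CPM in DMSO libraries (log2 0.64, SE 0.0995, edgeR adjusted p = 0.0124). mt-Nd5, a subunit of complex I, stood at 4031 and 3433 CPM with topotecan, against 2417 and 2523 CPM with DMSO (log2 0.60). mt-Cytb, of complex III, stood at 5222 and 4266 CPM with topotecan, against 2992 and 3257 CPM with DMSO (log2 0.60). In each, topotecan replicate 1 was the highest of the 4 libraries, and the other 6 WT libraries ranged between 4015 and 4974 CPM for mt-Co1. Together mitochondrially encoded genes took 2.93 and 2.5% of counts with topotecan, against 1.74 and 1.91% with DMSO. Apart from mt-Co1, whose call was lost without DMSO replicate 1, the called members lost their calls without topotecan replicate 1 or either DMSO library. mt-Nd5 and mt-Nd4 overlap mt-Nd6 and mt-Nd4l. The part of this share in the other results was not tested.

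Genes of antigen presentation leaned lower. All 13 tested genes of MHC class II presentation had negative log2 values (-0.65 to -0.03, median -0.35), and 2 were called. H2-Ab1, the class II beta chain, stood at 8050 and 7879 CPM in topotecan libraries, against 10691 and 9623 CPM in DMSO libraries (log2 -0.35, SE 0.0608, edgeR adjusted p = 0.0202). H2-DMb2, part of the complex that loads peptide onto class II, stood at 334 and 321 CPM with topotecan, against 482 and 498 CPM with DMSO (log2 -0.58, SE 0.104, edgeR adjusted p = 0.0236). At an unadjusted p under 0.05, 10 of the 13 were lower, against 8.01% of all tested genes. H2-Aa, the alpha chain, stood at 4463 and 4146 CPM with topotecan, against 5223 and 5124 CPM with DMSO, and was not called in edgeR (adjusted p = 0.0738). DESeq2 called H2-Aa, H2-Ab1, H2-DMb2 and H2-Eb2 lower, and limma-voom called the same genes except H2-Eb2. In edgeR H2-Ab1 and H2-DMb2 lost their calls without topotecan replicate 2 or DMSO replicate 1, and H2-DMb2 also without DMSO replicate 2. The DMSO libraries lay below the 6 other WT libraries for both genes, whose ranges were 12992 to 18912 CPM for H2-Ab1 and 510 to 846 CPM for H2-DMb2, while the summed dendritic cell and macrophage markers, cells that also use class II, were higher with topotecan. Icosl, a costimulatory ligand, stood at 95.1 and 84.1 CPM with topotecan, against 157 and 149 CPM with DMSO (log2 -0.77, SE 0.127, edgeR adjusted p = 0.0153). Cd80, another costimulatory ligand, stood at 79.2 and 34.1 CPM with topotecan, against 132 and 97.6 CPM with DMSO (log2 -1.02, edgeR adjusted p = 0.132). It was not called in edgeR or limma-voom, while DESeq2 called it lower. Among 14 genes of MHC class I presentation none was called in edgeR, 5 were lower and 0 higher at an unadjusted p under 0.05, limma-voom called none and DESeq2 called Psmb10 lower.

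Other called genes of the immune and stress lists were few. Cxcl10, a chemokine induced by interferon, stood at 158 and 113 CPM in topotecan libraries, against 263 and 265 CPM in DMSO libraries (log2 -0.96, SE 0.155, edgeR adjusted p = 0.0141). Its lists held 28 interferon response genes with a median of 0.00 and 10 thymic chemokines, and it was the 1 call in each. DESeq2 also called Cxcl9, an interferon response gene, lower. Il23a, a subunit of the cytokine IL-23, stood at 50 and 39.5 CPM with topotecan, against 106 and 85.2 CPM with DMSO (log2 -1.09, SE 0.181). It was also the 1 call of its list, among 18 inflammatory cytokine genes. Hspa5, the main chaperone of the endoplasmic reticulum, stood at 887 and 1087 CPM with topotecan, against 1610 and 1487 CPM with DMSO (log2 -0.65, SE 0.121, edgeR adjusted p = 0.0309). It was the 1 call among 15 heat shock chaperones, whose median was -0.09. DESeq2 also called Hspa8 of this list lower, and limma-voom called no member. Manf, another protein of the endoplasmic reticulum, whose gene overlaps Dcaf1 and Rbm15b, fell by 0.79 on the log2 scale. Hsp90b1, picked out after its values were seen, fell by 0.50. Phgdh, the first enzyme of serine synthesis, stood at 169 and 163 CPM with topotecan, against 330 and 288 CPM with DMSO (log2 -0.89, SE 0.13, edgeR adjusted p = 0.00982), the 1 call among 13 genes of the integrated stress response. Without DMSO replicate 1 the calls of Cxcl10, Il23a, Hspa5, Hsp90b1, Manf, Icosl and Phgdh were lost, and apart from Phgdh each was also lost without at least 1 topotecan library.

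Lists for DNA damage and division held 1 called gene. The unadjusted counts below stand beside 5.92% higher and 8.01% lower over all tested genes. Plk2, a kinase gene that p53 activates, stood at 153 and 145 CPM in topotecan libraries, against 76.6 and 71.5 CPM in DMSO libraries (log2 1.01, SE 0.21, edgeR adjusted p = 0.044), and it was also Aire-induced. Its call was lost under each single leave-out, and the 30 p53 targets had a median of -0.21, with 2 higher and 8 lower at an unadjusted p under 0.05. None of the 28 repair genes was called in edgeR; 1 was higher and 4 lower at an unadjusted p under 0.05, DESeq2 called Brca1 and Tdp1 lower, and limma-voom called none. Brca1, a mediator of homologous recombination, stood at 2.65 and 9.87 CPM with topotecan, against 22.1 and 43.5 CPM with DMSO (log2 -2.37, edgeR adjusted p = 0.0662). Tdp1, which removes trapped topoisomerase I from DNA, stood at 39.4 and 40.1 CPM with topotecan, against 61.1 and 69.5 CPM with DMSO (log2 -0.71, edgeR adjusted p = 0.0719). Neither passed in edgeR. For both genes the topotecan libraries lay below both DMSO libraries, as they did in 19.8% of all tested genes. Of 36 cell cycle genes none was called in edgeR, 9 were lower and 0 higher at an unadjusted p under 0.05, and DESeq2 called Rrm2, a ribonucleotide reductase subunit, lower; the list median was -0.47. Immediate early genes (21 tested, median 0.27), NRF2 targets (18, median -0.09) and elongation factors (26, median 0.09) had no call in edgeR, DESeq2 or limma-voom, and at an unadjusted p under 0.05 they had 3, 1 and 2 higher members and no lower one. Of 26 ribosomal protein genes 21 were lower in both topotecan libraries than in both DMSO libraries, against 19.8% of all tested genes; the list median was -0.26 and none was called in edgeR, with 11 lower and 1 higher at an unadjusted p under 0.05, and DESeq2 called Rps2 higher. None of the 7 topoisomerase genes was called by any of the 3 tools, with 1 lower at an unadjusted p under 0.05, Top2a.

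**Figure D4:**
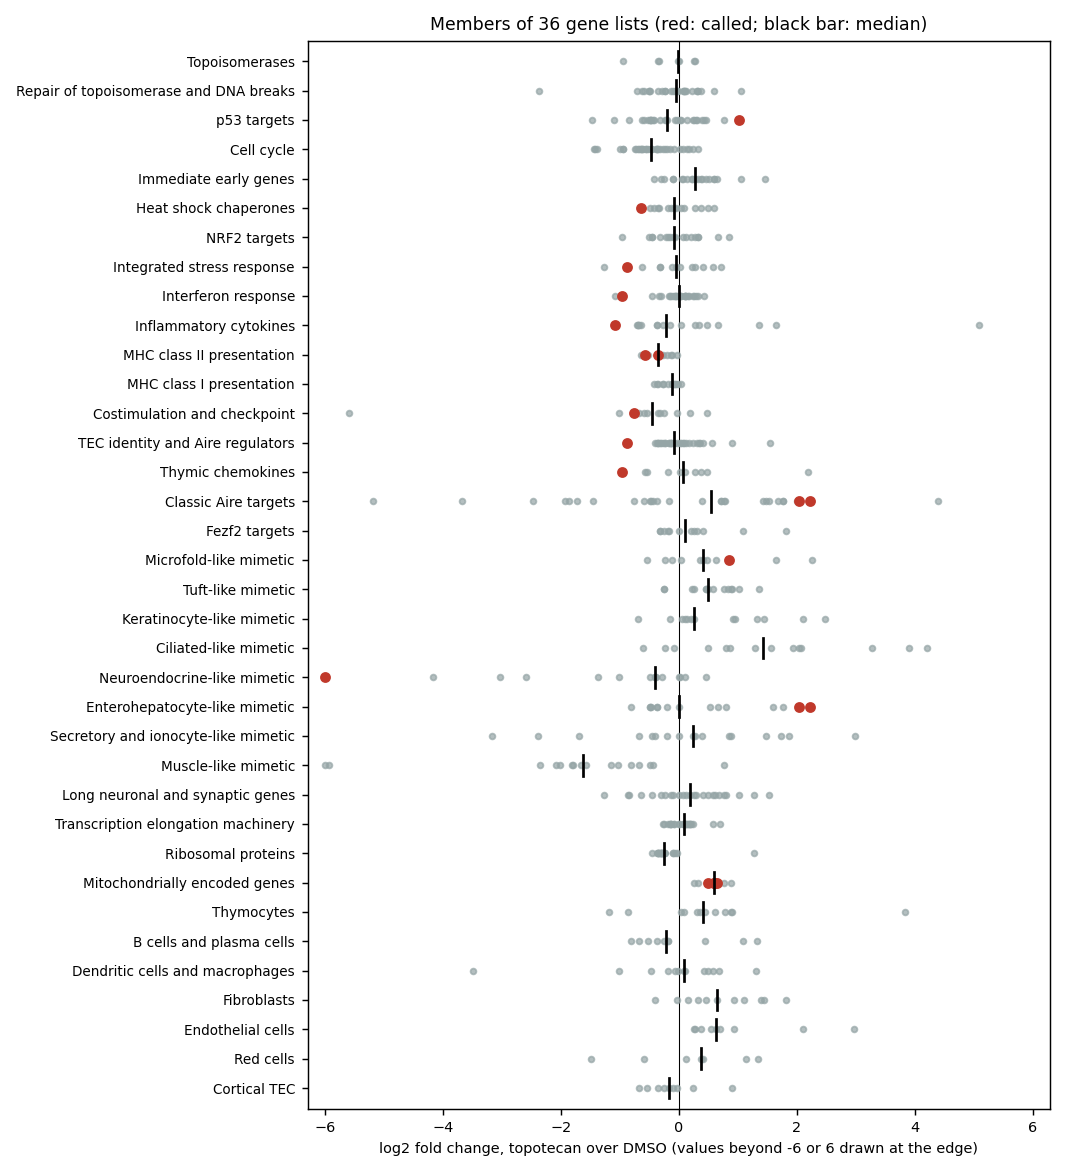
Log2 fold change of topotecan over DMSO (horizontal axis) for the tested members of 36 gene lists (rows), with called genes in red, other genes in grey and the list median as a black bar; values beyond -6 or 6 are drawn at the edge. Mitochondrially encoded genes (median 0.60) lie wholly to the right of 0 and MHC class II genes (median -0.35) wholly to the left, while the muscle, ciliated and neuroendocrine lists spread widely.

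Lists of mimetic cells had few calls and wide spreads. Of all tested genes, 5.92% were higher and 8.01% lower at an unadjusted p under 0.05. Enterohepatocyte-like genes had 2 calls of 15, Apoa1 and Apoa4, and a median of 0.00. These are also the 2 calls among 30 classic Aire targets, whose median was 0.55 with single members between -5.19 and 4.39. Among those targets 9 were higher and 6 lower at an unadjusted p under 0.05. There DESeq2 also called Csn1s1 and Reg1 lower, and limma-voom also called Lcn2 higher. Fabp1, an enterohepatocyte-like gene, was called higher in DESeq2. Microfold-like genes had 1 call of 11, Marcksl1, a membrane-cytoskeleton protein gene, at 192 and 158 CPM with topotecan, against 105 and 89.2 CPM with DMSO (log2 0.85, SE 0.155, edgeR adjusted p = 0.0265). Gp2, the microfold receptor for bacteria, stood at 752 and 395 CPM with topotecan, against 133 and 108 CPM with DMSO, and was not called (edgeR adjusted p = 0.109). Neuroendocrine-like genes had 1 call of 15, Chgb, and a median of -0.41. In DESeq2 Chga of this list and Tnfrsf11b of the microfold-like list were also called lower. None of Chgb, Chga and Tnfrsf11b was called in limma-voom. None of the 15 tuft-like (median 0.50), 14 ciliated-like (1.43), 13 keratinocyte-like (0.26) and 16 muscle-like genes (-1.63) was called in edgeR. At an unadjusted p under 0.05, 4 tuft-like, 7 ciliated-like and 3 keratinocyte-like genes were higher and 0, 1 and 1 lower, and 0 muscle-like genes were higher and 5 lower. DESeq2 called Alox5ap among tuft-like and Ccdc153 and Dynlrb2 among ciliated-like genes, and limma-voom called Alox5ap. Secretory and ionocyte-like genes (17, median 0.23) and Fezf2 targets (12, median 0.10) had no call in edgeR or limma-voom, with 2 and 1 higher and 3 and 0 lower at an unadjusted p under 0.05, and DESeq2 called Apoc3, a Fezf2 target, higher. Of 32 genes of epithelial identity and Aire regulation, Aire was the 1 call, and the median was -0.09. In 5 of the 14 ciliated-like genes, against 19.9% of all tested genes, both topotecan libraries lay above both DMSO libraries. Dynlrb2, a dynein light chain gene, was not one of the 5 and stood at 0.331 and 22 CPM in topotecan libraries, against 0.287 and 0.841 CPM in DMSO libraries.

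The topotecan effect was set against that of spermidine over PBS in WT mTEChi, 4 further libraries. The difference was called for 7 genes (0.038%). In none of the 7 was the spermidine effect itself called (edgeR adjusted p = 0.999 for each). Meltf had the smallest p, with a log2 fold change of -4.02 with topotecan and 1.37 with spermidine (difference -5.39, edgeR adjusted p = 0.0293). Rnf187 had 1.74 with topotecan and -0.33 with spermidine (difference 2.08, edgeR adjusted p = 0.0434). Calcb had -1.68 and -0.05 on the same scale, and mt-Co1 had 0.64 and -0.24. Pgc, Cel and Psca were the remaining 3, with lower values for topotecan. Aire had -0.88 with topotecan and 0.10 with spermidine, and the difference was not called (log2 -0.98, edgeR adjusted p = 0.122). With DMSO replicate 1 left out 2 genes differed, and with topotecan replicate 2 left out 19 did.

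The called genes were also placed against the 6 other WT libraries. They had been called from these same topotecan and DMSO values. Their shares below therefore follow in part from that choice and are no separate support. In 79 of the 84 genes that fell (94.0%), both topotecan libraries lay below the whole range of those 6, as did 12.7% of all tested genes, and both DMSO libraries lay below it in 18 (21.4%), against 8.89% of all tested genes. In 23 of the 36 genes that rose (63.9%), both topotecan libraries lay above that range, against 12.4% of all tested genes, and in 17 (47.2%) both DMSO libraries lay below it, against 8.89% of all tested genes. Clec4f, Bco1 and Gkn1 were among those 17.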

How the data were processed

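For mTEChi the authors deposited raw read counts per gene, made with featureCounts, per the submitters' processing notes, which also name STAR, TopHat2 2.1.1, SAMtools 1.3.1 and build mm10. For B6 Aire-GFP+ cells the deposited values are kallisto expected counts per transcript, with no version given; here they were summed to genes by GENCODE M21 and rounded, and 1673 of 118489 transcripts had no match. The mTEChi tables hold 55011 genes. All 16 mTEChi libraries were fitted together with edgeR 4.0.16 in R 4.3.3 (quasi-likelihood test, TMM scaling, filterByExpr, a mean for each of 8 groups, Benjamini-Hochberg adjustment over all genes tested), and a gene is called at an adjusted p under 0.05. SE is the log2 fold change over the square root of F. The steps were tested on simulated data. Spans are from GENCODE M21, found for 18110 tested genes. Where a group had no count, folds were bounded with 3 counts in total for that group. Intervals and floors cover counting error only. Replicates differed by more than counting error (chi-square per degree of freedom 10.6 with topotecan and 8.22 with DMSO, genes of 20 counts or more in a pair).

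The genes named are Aire and Top1, per direction the 15 called genes with the largest change (groups not overlapping, average level at least 5 CPM), up to 4 members per list by p and the 10 longest called genes per direction; others are said to be chosen after their values were seen. The samples and the 36 gene lists were chosen with earlier results of these data known. Alternatives were DESeq2 1.42.0, limma-voom (limma 3.58.1), edgeR glmTreat at a fold of 1.5, other scaling, filters, fits and definitions, and leaving out each library. Promoter sequences are from RefSeq (GRCm38.p6). Exact permutation tests used SciPy 1.17.1.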

Additional observations from a re-analysis of the deposited data

How the results depend on the processing

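The 120 called genes (36 higher, 84 lower) were all called with library totals alone, with RLE scaling and without a filter on low counts. DESeq2 called 415 genes (138 higher, 277 lower), limma-voom 60 (30 lower), edgeR glmTreat at a fold of 1.5 called 14 (3 higher, 11 lower), no filter 1006 (348 higher, 658 lower) and the 4 libraries alone 1 (1 higher, 0 lower). Of the 120 genes, DESeq2 called 119, limma-voom 51 and glmTreat 14, and limma-voom did not call the other 69. Same-numbered libraries did not deviate together (correlation -0.0109), so the numbers give no pairing, and the replicate block gave 196 calls (144 lower). Single leave-outs, in which the lone library is assumed to vary like the other groups, gave 45 to 170 calls, 6 to 65 higher and 39 to 105 lower. Called genes of 100 kb or more numbered 5, against 65 without a filter, 27 in DESeq2, 2 in limma-voom, 0 in glmTreat, 0 in the 4 libraries alone, 9 with the replicate block and 3 to 10 in leave-outs, and they were 17 at 50 kb, 1 at 200 kb and 3 by an exonic length of 10 kb. Aire-induced genes called lower numbered 29, against 235 without a filter, 76 in DESeq2, 3 in limma-voom, 7 in glmTreat, 0 in the 4 libraries alone, 44 with the replicate block and 20 to 32 in leave-outs. The difference from spermidine was called for 7 genes, 465 without a filter and 2 to 19 in leave-outs. No called gene changed sign under any alternative that tested it. The groups did not overlap for any of the 120, so these alternatives could hardly reverse a sign. The cause of these differences was not tested. Depth limits genes of a few counts, whose folds rest on the fit.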

Other observations

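Some genes were carried by 1 library, which a mean of 2 hides. Chga, a granule protein gene of neuroendocrine cells, stood at 44.1 and 35.4 CPM in topotecan libraries, against 412 and 70.7 CPM in DMSO libraries (log2 -2.60, edgeR adjusted p = 0.0567). Ccl17, a chemokine for T cells, stood at 1.66 and 73.3 CPM with topotecan, against 12 and 4.49 CPM with DMSO. Resp18, a neuroendocrine granule protein gene, stood at 359 and 47.5 CPM with topotecan, against 97.2 and 95.3 CPM with DMSO. Muc5b, an airway mucin, stood at 7.62 and 88.2 CPM with topotecan, against 12.6 and 16.3 CPM with DMSO. None of these 4 was called in edgeR.

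Lcn2, the gene called in the fit to the 4 libraries alone, stood at 495 and 557 CPM in topotecan libraries, against 106 and 117 CPM in DMSO libraries, a difference of 2.24 on the log2 scale (SE 0.526). In the fit to all 16 libraries its edgeR adjusted p was 0.0698.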
